A study of Rattus norvegicus with 8 samples.

Results

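Glycolysis and lactate enzymes were followed across CA3 hippocampal neurons of the rat. The members were 10 genes (Hk1, Pfkm, Aldoa, Gapdh, Pgk1, Eno1, Eno2, Pkm2, Ldha and Ldhb), found on the arrays by gene name with every probe of a name taken, which gave 13 of 41012 probes. Hk1, Gapdh and Eno1 had 2 probes each and the other 7 genes 1 each. The study captured pyramidal neurons by laser from frozen brain sections of male Sprague-Dawley rats and hybridised amplified RNA of the pools to 8 Agilent arrays of the rat genome in 1 colour, with 4 groups of 2 arrays. Naïve rats had no surgery, sham rats had the surgery without the injury, and the other rats had a moderate fluid percussion brain injury, a pressure pulse onto the exposed dura. From the injured rats, 24 h after the injury, neurons stained by Fluoro-Jade, a dye taken up by degenerating neurons, formed the dying group, and adjacent unstained neurons the surviving group. Each pool came from several rats and the labels tie no array to an animal, so p-values below measure the spread between these pools. The age of the rats is not given in the sources used here. These sources name 2 RNA amplification kits without saying which pool had which, so the kit could not be set apart as a batch.

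Glycolysis turns glucose into pyruvate in the cytosol and yields ATP and NADH. Hexokinase and phosphofructokinase commit the sugar in the upper steps, aldolase splits it, and the lower steps from glyceraldehyde-3-phosphate dehydrogenase to pyruvate kinase recover ATP. Lactate dehydrogenase interconverts pyruvate and lactate, and its subunits come from Ldha and Ldhb, the latter being typical of neurons and heart. In brain, enolase 2 is the neuronal and enolase 1 the general form, aldolase A is typical of neurons and aldolase C of astrocytes, and lactate released by astrocytes is a known fuel of neurons.

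RefSeq promoter entries of build GRCr8 were found for 9 of the 10 members, all but Pgk1. The 250 bases before the start are shown for 4 members with 1 listed start each, namely both lactate dehydrogenase genes, neuronal enolase and Gapdh, an isozyme pair, a cell-type form and a reference transcript, chosen after their values were seen. Capitals mark the letters ACGTG, a form of the core of the hypoxia response element, or GGGCGG, the GC box bound by Sp1. Each was sought on either strand (CACGT and CCGCCC on the other strand), and the motifs do not overlap each other. The form GCGTG of the hypoxia core was not sought and is not marked. Ldha lies at chr1:106507842-106508091 on the plus strand, and Ldhb at chr4:177177409-177177658, Eno2 at chr4:159267221-159267470 and Gapdh at chr4:159652468-159652717 on the minus strand.
Ldha: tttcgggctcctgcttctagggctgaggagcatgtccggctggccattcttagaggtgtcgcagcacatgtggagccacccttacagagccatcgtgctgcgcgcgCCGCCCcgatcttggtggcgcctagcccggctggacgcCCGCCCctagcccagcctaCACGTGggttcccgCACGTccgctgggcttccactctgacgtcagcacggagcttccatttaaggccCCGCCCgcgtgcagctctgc
Ldhb: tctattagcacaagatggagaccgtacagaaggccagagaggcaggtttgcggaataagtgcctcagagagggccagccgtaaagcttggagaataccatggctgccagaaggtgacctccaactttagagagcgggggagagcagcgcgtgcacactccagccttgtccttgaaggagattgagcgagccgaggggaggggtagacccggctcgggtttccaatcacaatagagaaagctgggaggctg
Eno2: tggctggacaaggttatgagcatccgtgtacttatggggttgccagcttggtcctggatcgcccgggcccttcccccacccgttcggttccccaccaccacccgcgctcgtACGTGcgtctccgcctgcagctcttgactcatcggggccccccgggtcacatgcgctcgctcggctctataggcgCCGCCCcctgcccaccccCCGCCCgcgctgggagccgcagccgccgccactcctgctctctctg
Gapdh: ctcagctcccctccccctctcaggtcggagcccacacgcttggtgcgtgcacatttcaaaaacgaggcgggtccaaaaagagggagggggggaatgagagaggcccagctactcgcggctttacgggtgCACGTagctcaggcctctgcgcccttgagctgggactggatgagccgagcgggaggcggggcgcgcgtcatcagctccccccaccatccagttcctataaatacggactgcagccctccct
Ldha held 3 matches to ACGTG, of which 2 share bases in a palindrome, and 3 to the GC box, while Ldhb held 0 of either. Ldhb does hold the letters GCGTG, so no contrast in the hypoxia core is read from this. Of the 13 entries of these 9 members, 6 held ACGTG and 6 the GC box, beside 16.6% and 30.5% of all 33469 promoter entries of that length. These are matches of letters, not known binding sites.

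Gapdh was also the reference transcript of the study's quantitative PCR, against which other genes were expressed, so its sequences are printed beside its own levels. The oligos of that assay, as listed in the study's supplementary table of qPCR sequences, were:
sense primer: aagctggtcatcaatgggaaac
antisense primer: gaagacgccagtagactccacg
hydrolysis probe: atcttccaggagcgcgatcccg

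All levels below are log2 of the background-corrected signal of a probe over the median of its array, so that 0 is the brightness of the median probe. On all 8 arrays the 13 member probes stood well above background by the image software's mark, as did 15703 of the 41012 probes. Levels are compared between arrays and not between probes, because probes differ in how well they bind. Sums over probes, given for lists of genes below, are likewise compared only between arrays, and a sum can largely follow its brightest probe. The naïve and sham arrays lay on 1 slide and the surviving and dying arrays on another, so surviving against dying and sham against naïve were compared within a slide, while in each comparison of an injured with a sham group the injury and the slide cannot be told apart. The median signal was 16.5 and 16.4 on the sham arrays, 52.4 and 48.3 on the surviving arrays and 19.4 and 53.0 on the dying arrays. The naïve arrays had medians of 28.8 and 22.7. Dying replicate 1 was thus dimmer than the other 3 arrays of its slide, and counts past the threshold that involve it are given with and without it. The 2 arrays per group limit the precision. In pools of captured tissue, fewer neurons and less of an RNA per neuron cannot be told apart.

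In the upper steps, the brightest probe of Hk1, the main brain hexokinase, read 8.50 and 8.46 in surviving neurons, 8.32 and 8.31 in dying ones, 10.09 and 9.75 in the sham pools and 8.90 and 9.60 in the naïve pools. Both injured groups thus lay below both control groups, and surviving above dying by less than the gap between the 2 sham arrays. The other Hk1 probe read 3.67 and 2.71 in surviving neurons, -0.16 and 2.37 in dying ones, 4.57 and 4.33 in the sham pools and 3.25 and 4.35 in the naïve pools, with dying replicate 1 far below the rest. The 2 Hk1 probes therefore ordered the groups alike but differed in how far the dying arrays lay below the surviving ones. Pfkm, the muscle-type subunit of phosphofructokinase, which neurons also make, read 9.61 and 9.49 in surviving neurons, 10.79 and 10.51 in the sham pools and 9.71 and 10.28 in the naïve pools. Its dying replicate 2 read 8.81, and the spot of dying replicate 1 was marked as non-uniform and left out of the fit (8.49 with it kept). Aldoa, aldolase A, read 9.22 and 9.12 in surviving neurons, 6.62 and 7.63 in dying ones, 10.59 and 9.71 in the sham pools and 9.47 and 10.35 in the naïve pools. Both dying arrays were well below all 6 others for Aldoa, and the surviving arrays lay just under the lowest control array.

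In the lower steps, the Gapdh probe spotted 10 times read 12.60 and 12.57 in surviving neurons, 11.74 and 11.87 in dying ones, 13.21 and 13.07 in the sham pools and 12.45 and 12.89 in the naïve pools. Its other probe read 12.11 and 11.98 in surviving neurons, 11.28 and 11.50 in dying ones, 12.56 and 12.30 in the sham pools and 11.66 and 12.36 in the naïve pools. On both probes of this reference transcript the dying arrays were the 2 lowest of 8, and naïve and surviving neurons overlapped. Pgk1, phosphoglycerate kinase, the first step that yields ATP, read 8.04 and 7.48 in surviving neurons, 5.11 and 7.07 in dying ones, 8.42 and 7.71 in the sham pools and 7.20 and 8.11 in the naïve pools. The naïve, sham and surviving arrays overlapped for Pgk1, and dying replicate 1 was the outlying low value. The brighter probe of Eno1, the general enolase, read 11.69 and 11.59 in surviving neurons, 11.25 and 11.17 in dying ones, 12.55 and 12.20 in the sham pools and 11.36 and 11.99 in the naïve pools. Its other probe read 10.59 and 10.89 in surviving neurons, 10.20 and 9.35 in dying ones, 12.04 and 11.55 in the sham pools and 10.80 and 11.32 in the naïve pools. Surviving and naïve neurons overlapped on both Eno1 probes, sham was highest and dying lowest. Eno2, the neuronal enolase, read 11.41 and 11.63 in surviving neurons, 10.51 and 10.64 in dying ones, 12.98 and 12.75 in the sham pools and 11.99 and 12.50 in the naïve pools. The 4 groups did not overlap for Eno2, in the order sham, naïve, surviving, dying. Pkm2, pyruvate kinase of muscle type, which makes pyruvate and a further ATP, read 10.78 and 11.51 in naïve, 12.03 and 11.80 in sham, 10.83 in surviving replicate 2 and 10.23 and 9.81 in dying neurons, and the non-uniform spot of surviving replicate 1 was left out of the fit (10.76 with it kept). The probes of Gapdh, Pgk1, Eno1 and Ldha may also bind transcripts of closely related copies of these genes, which the arrays do not separate.

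For lactate, Ldha, the subunit typical of muscle, read 4.40 and 3.48 in surviving neurons, 0.31 and 3.36 in dying ones, 5.31 and 4.31 in the sham pools and 3.99 and 5.32 in the naïve pools. Dying replicate 1 lay far below the other 7 arrays, and its Ldha value was 2.64 with the non-uniform spots among the 10 of this probe kept, still the lowest. Ldhb, the subunit typical of heart and neurons, read 10.41 and 10.31 in surviving neurons, 10.99 and 10.59 in the sham pools and 10.31 and 11.25 in the naïve pools. Both dying spots of Ldhb were marked as non-uniform, so the fit holds no dying value for it. With those spots kept, Ldhb read 9.80 and 10.17 in dying neurons, below both surviving arrays. Over the 13 member probes, sham replicate 1 was the highest array for 11 probes and naïve replicate 2 for 2, and the lowest array was dying replicate 1 for 7 and dying replicate 2 for 5.

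**Figure D1:**
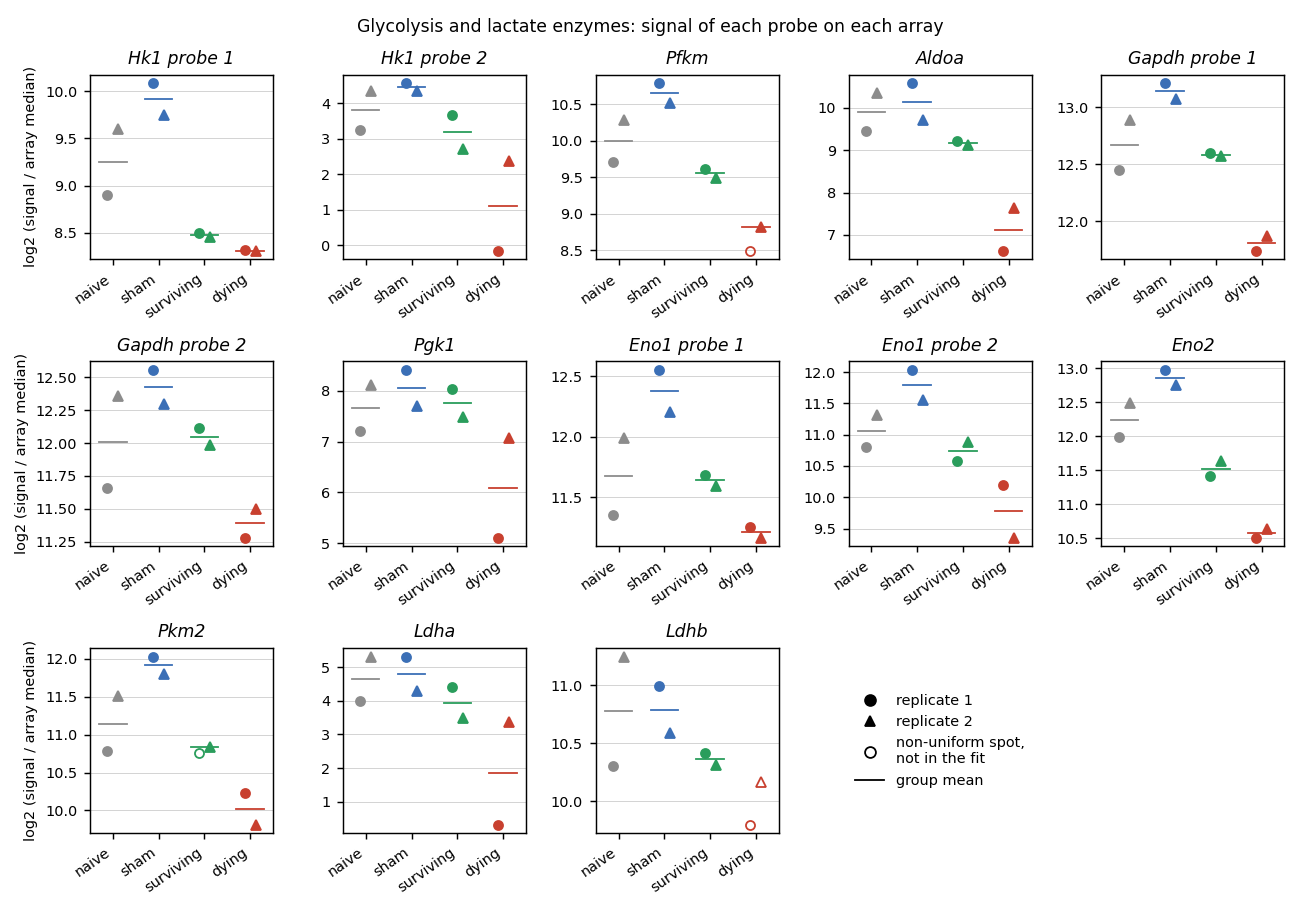
Log2 signal over the array median of each of the 13 member probes, with the 4 groups on the horizontal axis, circles for replicate 1, triangles for replicate 2, bars for group means and open symbols for non-uniform spots left out of the fit. Dying arrays sit lowest for every probe with a value, as for Aldoa at 6.62 and 7.63 against 9.22 and 9.12 in surviving neurons.

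The comparison of surviving with dying neurons asks what sets neurons that withstood the injury apart from adjacent ones that did not. Every one of the 12 member probes with a difference was higher in surviving neurons, by 0.17 to 2.10 on the log2 scale, except that the first Hk1 probe turned to -0.13 under quantile normalization and to -0.16 with the RefSeq probes' median as the scale. Both surviving arrays were above both dying arrays for 10 of the 10 member probes with all 4 values, while 30.4% of all probes tested had surviving neurons higher in this way and 21.6% lower. The members' median difference, over the brightest probe of each gene, was 0.81, and that of all 27404 probes tested 0.15. Aldoa was higher in surviving neurons by 2.05 ± 0.59 (SE), 4.13-fold (adjusted p = 0.149, limma). Ldha differed by 2.10 ± 0.99 (adjusted p = 0.277, limma), the second Hk1 probe by 2.09 ± 0.85 (adjusted p = 0.225, limma) and Pgk1 by 1.67 ± 0.73 (adjusted p = 0.248, limma). Without dying replicate 1 these 3 differences were 0.58, 0.82 and 0.69. The smaller differences were 0.78 ± 0.45 and 0.66 ± 0.48 for the Gapdh probes, 0.43 ± 0.48 and 0.96 ± 0.52 for the Eno1 probes, 0.95 ± 0.46 for Eno2, 0.81 ± 0.64 for Pkm2, 0.74 ± 0.61 for Pfkm and 0.17 ± 0.48 for the first Hk1 probe. No member probe passed the threshold, an adjusted p of 0.05 in limma: 0 of 12, as 0 (0%) of all probes tested, with 3 member probes and 5530 of all probes at an unadjusted p under 0.05. Without dying replicate 1 the count was again 0, and all 11 member probes with the values were higher in both surviving arrays than in dying replicate 2. Without dying replicate 2, 4 of 11 member probes passed in limma (Aldoa, Pgk1, Ldha and the second Hk1 probe), as 5043 of all probes then did. The dying group was then replicate 1 alone, taken to vary like the other groups, so these calls are not counted as results. The 11 of 11 against dying replicate 2 is reached more easily than against 2 dying arrays. No share over all probes is given for it.

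The comparison of dying with sham neurons asks what the injury changed in neurons that were degenerating. All 12 member probes with a difference were lower in dying neurons, from -3.34 to -1.03 on the log2 scale, a direction that all 12 kept under each scaling tried. In limma 9 of 12 fell and 0 rose, whereas 40.1% of all 25629 probes tested passed, 26.9% lower and 13.2% higher in dying neurons. Both dying arrays were below both sham arrays for 11 of the 11 member probes with all values, against 45.7% of all probes lower in this way and 30.9% higher. Without dying replicate 1 the 12 differences ran from -2.52 to -0.925, beside a median of -0.29 over all probes tested. With both dying arrays the members' median difference was -1.89 and that of all probes tested -0.47. The latter was -0.91 over probes above background on all 4 arrays. It turned to 0.25 under 75th percentile scaling, 0.21 under quantile normalization and 0.54 with the median of probes above background as the scale. The members' median was then -1.17, -0.83 and -0.88. Relative to all probes tested it was -1.42, and -0.98 with the filter on all 4 arrays. Aldoa fell by 3.02 ± 0.59, 8.14-fold (adjusted p = 0.0077, limma), lower in 2 of 2 dying arrays. Eno2 fell by 2.29 ± 0.46, 4.89-fold (adjusted p = 0.0086, limma), Pkm2 by 1.89 ± 0.52 (adjusted p = 0.027, limma) and Ldha by 2.97 ± 0.99 (adjusted p = 0.044, limma). Hk1 fell by 1.60 ± 0.48 on its brighter probe (adjusted p = 0.031, limma) and fell by 3.34 ± 0.85 on the other (adjusted p = 0.018, limma), and Pfkm by 1.84 ± 0.61 (adjusted p = 0.049, limma). Pfkm had dying replicate 2 alone, which was taken to vary like the other groups, and it is 1 of the 9. For 2 genes the probes split at the threshold. Gapdh fell by 1.33 ± 0.45 on the probe spotted 10 times (adjusted p = 0.047, limma) and differed by -1.03 ± 0.48 on the other (adjusted p = 0.114, limma), and Eno1 fell by 2.01 ± 0.52 on its dimmer probe (adjusted p = 0.019, limma) and differed by -1.17 ± 0.48 on the brighter (adjusted p = 0.080, limma). Pgk1 differed by -1.97 ± 0.73 (adjusted p = 0.060, limma). Without dying replicate 1 the second Hk1 probe, Ldha and Pgk1 differed by -2.08, -1.45 and -0.99 and did not pass (adjusted p = 0.068, 0.217 and 0.271, limma). With the non-uniform spots kept, Ldha differed by -1.81 and did not pass (adjusted p = 0.063, limma).

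In dying against sham neurons the count of member probes past the threshold, 9 with 10290 of all probes, moved with the settings. It was 5 without dying replicate 1 (Pfkm, Aldoa, the dimmer Eno1 probe, Eno2 and Pkm2), 8 without dying replicate 2, 0 without sham replicate 1 and 1 without sham replicate 2, where the lone array left was taken to vary like the other groups and 7114, 12517, 1798 and 3687 of all probes passed in turn. It was 4 with arrays scaled by their 75th percentile (11115 of all probes), 4 with quantile normalization (9280) and 0 with normexp background correction, where 0 of all probes passed. A scale from the median of probes above background left 3 (12002 of all probes) and that of RefSeq probes 3 (9578). A fit of the 2 groups alone left 5 (8553 of all probes), and a filter on all 4 arrays 6 (5377 of 16359 probes).

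The comparison of surviving with sham neurons asks what the injury changed in neurons that withstood it. All 13 member probes were lower in surviving than in sham neurons, from -1.44 to -0.30 on the log2 scale, but 5 of them turned higher under 75th percentile scaling, 5 under quantile normalization, 6 under normexp correction and 6 with the median of probes above background as the scale, both Gapdh probes, Pgk1 and Ldhb each time. The members' median difference of -0.92 stood beside -0.43 for all 26910 probes tested, a shift of all probes tested that became 0.35 under 75th percentile scaling and 0.18 under quantile normalization. Relative to the median of all probes tested, which cancels the scaling, the members' median was -0.50. It was -0.10 when only probes above background on all 4 arrays were taken, -0.19 without a filter, -0.02 with normexp correction and -0.17 without sham replicate 1. The largest differences were -1.44 ± 0.48 for the first Hk1 probe (adjusted p = 0.075, limma) and -1.34 ± 0.46 for Eno2 (adjusted p = 0.082, limma). In limma 0 of 13 member probes passed, with 2 at an unadjusted p under 0.05, whereas 15.5% of all probes passed, 9.95% lower and 5.55% higher in surviving neurons. Both surviving arrays were below both sham arrays for 10 of 12 member probes with all values, against 49.0% of all probes lower in this way and 28.0% higher. The split of calls over all probes also turned with the scaling: 64.2% of them were lower in surviving neurons under median scaling and 25.7% under 75th percentile scaling, and for dying against sham neurons 67.1% and 40.4%. Without sham replicate 1 the members' median was -0.55. Both comparisons share the sham arrays.

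**Figure D2:**
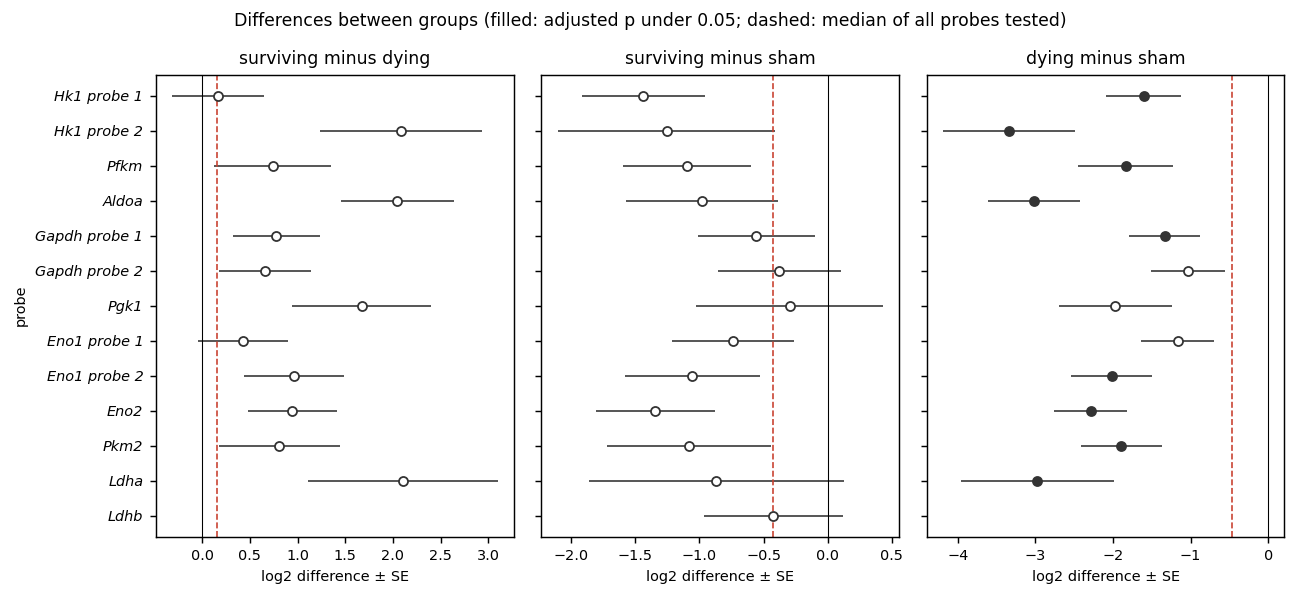
Log2 difference of each member probe with its SE in 3 comparisons, filled where the adjusted p was under 0.05 in limma, with a dashed line at the median of all probes tested. In dying minus sham all 12 differences lie left of the dashed line at -0.47, and in surviving minus dying no symbol is filled.

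Sham surgery was set against no surgery as the measure of the operation itself. All 13 member probes were higher in sham than in naïve neurons, by 0.01 to 0.77 on the log2 scale, with 3 turning lower under 75th percentile scaling, 6 under quantile normalization, 5 with the median of probes above background and 1 with that of RefSeq probes as the scale. None passed in limma, 0 of 13 as 0 (0%) of all 20739 probes tested, with 0 member probes and 829 of all probes at an unadjusted p under 0.05. Both sham arrays were above both naïve arrays for 7 of 13 member probes, beside 39.0% of all probes higher and 4.39% lower in this way. The members' median difference of 0.55 was close to the 0.40 of all probes tested. Naïve replicate 1 was lower than naïve replicate 2 for every member probe, and the median difference was 0.28 without naïve replicate 1 and 0.87 without naïve replicate 2. Without naïve replicate 1, 4 member probes turned lower in sham neurons, and without sham replicate 1, 3 did.

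Ratios of 2 isozymes within an array do not depend on the scaling of the array. They were read only for change between groups, since a ratio of 2 probes also holds how well each binds. With 2 against 2 arrays the exact two-sided permutation test cannot give a p below 0.333, so no ratio could pass a threshold. The log2 ratio of neuronal to general enolase, Eno2/Eno1, was -0.27 and 0.04 in surviving neurons, -0.75 and -0.52 in dying ones, 0.42 and 0.55 in the sham pools and 0.63 and 0.50 in the naïve pools. Naïve and sham overlapped, both surviving arrays were lower and both dying arrays lower again. The difference was 0.52 between surviving and dying neurons and -1.12 between dying and sham neurons, each at the smallest exact permutation p of 0.333. With the mean of both Eno1 probes the difference between surviving and dying neurons was 0.25 and the groups overlapped (exact permutation p = 0.667), and that between dying and sham neurons was -0.70 (exact permutation p = 0.333). The ratio of Aldoc, the astrocyte-typical aldolase, to Aldoa was -3.13 and -2.91 in surviving neurons, 1.24 and -1.07 in dying ones, -2.50 and -2.43 in the sham pools and -2.09 and -2.43 in the naïve pools. Both dying arrays stood above all others. The surviving arrays stood below all others, a difference of -3.11 from the dying ones (exact permutation p = 0.333), which was -1.95 without dying replicate 1 and -4.26 without dying replicate 2. Ldha/Ldhb was -6.01 and -6.83 in surviving neurons, -5.68 and -6.28 in the sham pools and -6.32 and -5.93 in the naïve pools, which overlapped. With the non-uniform spots kept it was -7.16 and -6.81 in dying neurons, overlapping the surviving values. Both were below all sham and naïve values, a difference of -1.01 from sham neurons (exact permutation p = 0.333). Hk2/Hk1 was not read, because Hk2, the hexokinase of muscle and fat, stood above background on 1 of 8 arrays.

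**Figure D3:**
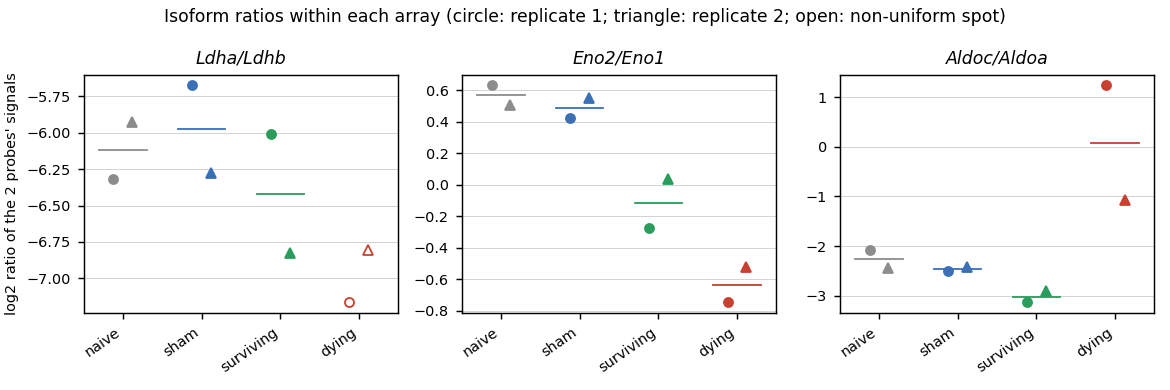
Log2 ratio of the signals of 2 isozymes within each array for 3 pairs, by group, with circles for replicate 1, triangles for replicate 2, bars for group means and open symbols where a non-uniform spot was kept. Eno2/Eno1 runs from about 0.5 in the control arrays to -0.75 and -0.52 in dying neurons, and Aldoc/Aldoa is highest in dying neurons at 1.24 and -1.07.

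Of 39 other genes of the pathway, 38 had a probe, 37 by name and 1 through RefSeq synonyms, and the brightest probe of each was used; 19 were well above background on all 8 arrays. In dying against sham neurons 14 of the 30 tested passed as lower and 2 as higher in limma (46.7% and 6.67%), beside 26.9% and 13.2% of all probes tested. In surviving against sham neurons 4 of 34 passed as lower and 1 as higher (11.8% and 2.94%), beside 9.95% and 5.55% of all probes. In surviving against dying neurons 0 of 34 passed, with 9 (26.5%) at an unadjusted p under 0.05, beside 20.2% of all probes, and with Hk3, Slc16a3 and Aldoc furthest below 0 among those well above background on all 4 arrays. With 1 array left out, the count in dying against sham neurons was 7 without dying replicate 1, 19 without dying replicate 2, 3 without sham replicate 1 and 7 without sham replicate 2. The calls of Gpi, Tpi1, Bpgm, Slc16a1, Slc16a3, Bsg, Pdhb, Dlat and Pdk3 were lost without dying replicate 1 and without either sham array. Those of Pfkp and Pdha1 held with any 1 array left out. That of Hk3 is not read this way, because it rests on sham signals below background. In surviving against sham neurons, the calls of Pfkp, Slc16a1, Pdha1 and Hif1a were lost whichever array was left out. Calls over all probes also became fewer each time, with a lone array in 1 group. The 4 differences stayed negative. They ran from -2.0039 to -1.7046 for Pfkp and from -2.1459 to -1.725 for Slc16a1. For Pdha1 they ran from -3.1515 to -2.7416 and for Hif1a from -1.9241 to -1.8735. Calls between surviving and dying neurons without dying replicate 2 are not counted as results, because dying replicate 1 then stood alone. There Slc2a3, Slc16a7, Dlat, Pdk3 and Pfkfb4 read from -3.18 to -2.47. The dimmest probe above background on that array read -1.37. The 2 higher in dying neurons are known outside neurons. Hk3, the hexokinase of myeloid cells, was not well above background on any naïve or sham array, where it read -3.06, -3.04, -2.55 and -1.53, and it read 2.30 and 2.71 in surviving neurons against 5.65 and 5.03 in dying ones. It is in both counts of genes higher than in sham neurons, but it was tested only because the injured arrays detected it, and its p-values rest on sham signals below background, so they are not given. Both surviving and both dying arrays detected it and 0 of 2 sham arrays did. Its level was at least 47.4-fold that of sham neurons in dying and at least 6.65-fold in surviving neurons, lower bounds taken from the dimmest probe that a sham array still marked as well above background. It differed by -2.83 ± 0.54 between surviving and dying neurons (adjusted p = 0.118, limma). Slc16a3, the lactate exporter MCT4 of astrocytes and other glycolytic cells, read 5.77 and 2.97 in surviving neurons, 6.95 and 6.18 in dying ones, 2.56 and 3.50 in the sham pools and 0.97 and 1.0 in the naïve pools. It rose by 3.53 ± 0.87 in dying against sham neurons (adjusted p = 0.016, limma), a call lost without dying replicate 1 (adjusted p = 0.086, limma) and without either sham array. It differed by -2.20 ± 0.87 between surviving and dying neurons (adjusted p = 0.216, limma). The 2 surviving arrays were far apart, and this was -3.59 without surviving replicate 1 and -0.80 without surviving replicate 2.

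Among the isozymes and missing steps, Pfkp, the platelet-type phosphofructokinase common in brain, read 7.61 and 7.37 in surviving neurons, 6.02 and 5.86 in dying ones, 9.49 and 9.20 in the sham pools and 8.21 and 8.96 in the naïve pools. The groups did not overlap between sham, surviving and dying. Pfkp fell in dying neurons by 3.41 ± 0.49 (adjusted p = 0.0033, limma) and in surviving neurons by 1.85 ± 0.49 (adjusted p = 0.040, limma) against sham. The dying call held with any 1 array left out and the surviving call was lost each time (adjusted p = 0.145 to 0.257, limma). Pfkl, the liver-type subunit, fell by 3.31 ± 0.52 in dying neurons, Tpi1, triosephosphate isomerase, fell by 2.33 ± 0.62, Gpi, which follows hexokinase, fell by 1.78 ± 0.54, and Bpgm, the bisphosphoglycerate mutase, fell by 1.75 ± 0.61. Their adjusted p-values in limma lay between 0.0041 and 0.0499. The calls of Tpi1, Gpi and Bpgm were lost without dying replicate 1. That of Pfkl was lost without sham replicate 1, where the difference was -3.02. Among genes well above background on all 4 arrays, Pfkl was also 1 of the 3 furthest above 0 between surviving and dying neurons, at 1.77 ± 0.52 (adjusted p = 0.149, limma). Aldoc differed by -1.06 ± 0.60 between surviving and dying neurons (adjusted p = 0.354, limma), opposite to Aldoa. This was -0.41 without dying replicate 1 and -1.71 without dying replicate 2.

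Glucose and lactate carriers did not move as 1 group. Slc2a3, the neuronal glucose transporter GLUT3, read 2.35 and 2.38 in surviving neurons, -2.88 and -0.32 in dying ones, 2.65 and 2.57 in the sham pools and 2.40 and 1.75 in the naïve pools. Of its dying arrays, both the lowest of all 8, replicate 2 alone was well above background, so the size of its fall against sham neurons (adjusted p = 0.0067, limma) is not exact. With replicate 1 raised to the dimmest signal its array marked as above background, the difference from sham was -3.45 and that between surviving and dying neurons 3.21. Without dying replicate 1 these were -2.93 and 2.69. The call of Slc2a3 against sham neurons was lost without sham replicate 1, where the difference was -4.17. Slc2a1, the GLUT1 of blood vessels and glia, read 6.27 and 5.73 in surviving neurons, 7.14 and 6.79 in dying ones, 6.44 and 6.10 in the sham pools and 5.69 and 5.91 in the naïve pools, a difference of 0.70 ± 0.48 between dying and sham (adjusted p = 0.258, limma). Its 2 dying arrays were the highest of all 8. Slc16a1, the lactate carrier MCT1, fell in dying neurons by 1.99 ± 0.54 and in surviving neurons by 1.94 ± 0.54 against sham (adjusted p = 0.022 and 0.047, limma), and Bsg, the partner protein of these carriers, fell in dying neurons by 1.43 ± 0.48 (adjusted p = 0.045, limma). Neither passed for dying neurons without dying replicate 1 (adjusted p = 0.067 and 0.070, limma), and the surviving call of Slc16a1 was lost whichever array was left out.

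Pyruvate dehydrogenase turns pyruvate into acetyl-CoA in the mitochondrion and is switched off by its kinases. Pdha1, the catalytic subunit of pyruvate dehydrogenase, read 5.89 and 5.99 in surviving neurons, 4.57 and 4.82 in dying ones, 9.09 and 8.68 in the sham pools and 8.01 and 8.14 in the naïve pools. It fell by 4.19 ± 0.46 in dying (adjusted p = 0.0016, limma) and by 2.95 ± 0.46 in surviving against sham neurons (adjusted p = 0.0091, limma). The dying call held with any 1 array left out and the surviving call was lost each time (adjusted p = 0.071 to 0.112, limma). Pdhb, its partner subunit, fell by 2.40 ± 0.65 in dying neurons (adjusted p = 0.022, limma, but 0.0995 without dying replicate 1) and differed by 1.77 ± 0.65 between surviving and dying neurons (adjusted p = 0.193, limma). Dlat, of the same complex, and the kinase gene Pdk3 also passed as lower in dying neurons (adjusted p = 0.045 and 0.036, limma), but dying replicate 1 was below background for both, at -2.47 and -3.18. With it raised to the dimmest signal that array marked as above background the differences were -3.81 and -3.85. Without dying replicate 1 they were -1.60 and -1.95 and did not pass (adjusted p = 0.080 and 0.065, limma). In the pentose phosphate branch, Taldo1, transaldolase, read 8.77 and 8.72 in surviving neurons, 7.17 and 6.84 in dying ones and 9.77 and 9.56 in the sham pools. The 3 groups did not overlap, and it fell by 2.66 ± 0.48 in dying against sham neurons (adjusted p = 0.0060, limma). This call was lost without sham replicate 1, where the difference was -2.55. Surviving exceeded dying neurons for Taldo1 by 1.74 ± 0.48 (adjusted p = 0.146, limma). Tkt, transketolase, differed by 0.22 ± 0.51 between dying and sham neurons and by -0.24 ± 0.51 between surviving and sham neurons (adjusted p = 0.735 and 0.760, limma). Hif1a, the hypoxia-inducible factor that activates many glycolytic genes, fell by 1.86 ± 0.45 in dying and by 1.90 ± 0.45 in surviving against sham neurons (adjusted p = 0.015 and 0.031, limma), and differed by -0.04 ± 0.45 between surviving and dying neurons. Its surviving call was lost whichever array was left out (adjusted p = 0.135 to 0.211, limma) and its dying call without either sham array (adjusted p = 0.112 and 0.091, limma).

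**Figure D4:**
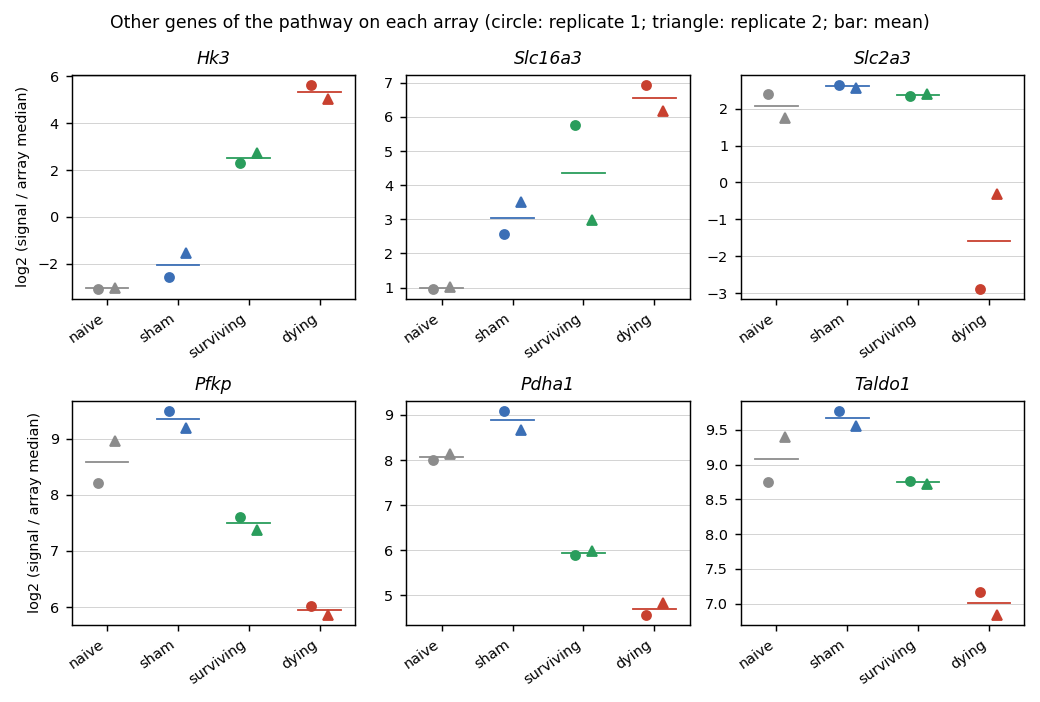
Log2 signal over the array median of 6 other genes of the pathway by group, with circles for replicate 1, triangles for replicate 2 and bars for group means. Hk3 and Slc16a3 are highest in dying neurons, at 5.65 and 5.03 and at 6.95 and 6.18, and Slc2a3, Pfkp, Pdha1 and Taldo1 are lowest there.

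The mean profile of the 10 members, each centred on its own mean over its arrays and averaged over those with a value, was 0.00 and -0.19 in surviving neurons, -1.53 and -0.84 in dying ones, 1.0 and 0.55 in the sham pools and -0.07 and 0.69 in the naïve pools. Members followed it with Pearson's r from 0.87 (Ldhb, over the arrays with a value) to 0.98 (Pfkm and Aldoa), although each is part of it. Among 6630 named probes that passed the background mark on every array, those of highest r with the profile, members left out, were Lrp3, a lipoprotein receptor relative, Ddost, of the oligosaccharyltransferase, Rab11a, of recycling endosomes, Tceal8, an elongation factor relative, and Slc1a2, the glutamate transporter GLT-1. Their r lay between 0.995 and 0.997 over 8 arrays. Lrp3 read 5.47 and 5.38 in surviving neurons, 3.75 and 4.57 in dying ones and 6.53 and 6.05 in the sham pools. Such a profile was common: 20.2% of the 15254 probes compared had an r above 0.9, and all of them share the arrays and their scaling.

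Markers of other cell types moved with the groups, and their part in these results was not tested. Of 9 markers of microglia and macrophages all had a probe, and 6 were well above background on each sham array, 8 and 9 on the surviving arrays and 7 and 8 on the dying arrays. Their summed signal in units of the array median was 305.7 and 337.9 in surviving neurons, 1935 and 1057 in dying ones, 263.6 and 241.8 in the sham pools and 120.0 and 252.9 in the naïve pools, with 893.9 and 437.4 on the dying arrays from the probe of the complement gene C1qb, the brightest there. Ptprc, the leukocyte marker CD45, was well above background on no dying array, and Itgam on both. Of 7 astrocyte markers 6 were well above background on each dying array, with a sum of 1013 and 472.5 there, 430.7 and 449.8 on the surviving and 1232 and 803.4 on the sham arrays, and the Slc1a3 probe was the brightest of the list. S100b was above background on no surviving or dying array. All 6 oligodendrocyte markers were well above background on every array, with sums of 1847 and 1763 on the sham arrays, against 166.0 and 196.9 on the surviving and 234.9 and 182.2 on the dying arrays. Of 5 endothelial markers the sum was 41.1 and 33.4 in surviving neurons, 150.0 and 85.0 in dying ones and 44.5 and 33.7 in the sham pools, where the Vwf probe was the brightest. Of these 5, 2 were above background on each sham array and 4 and 3 on the dying arrays, and Tek on none. The 3 red blood cell markers, with the Hba-a1 probe brightest, summed to 3264 and 2503 on the dying, 1190 and 752.4 on the surviving and 357.0 and 396.8 on the sham arrays. In dying against sham neurons 4 of the 7 microglia and macrophage markers tested rose in limma (Cd68, Tyrobp, C1qa and C1qb), as did 1 endothelial marker (Vwf) of the 3 tested and 2 of 3 red blood cell markers, while 2 of 8 pyramidal neuron markers fell (Snap25 and Nrgn). The endothelial Flt1 passed as well, but it was above background on 0 of 2 sham and 2 of 2 dying arrays. Its p thus rests on sham signals below background. The same limit applies to Itgam, above background on 0 of 2 sham and 2 of 2 dying arrays. Its call with dying replicate 1 left out, given below, is therefore not counted as a result. Of the other lists, 2 of 5 interneuron, 2 of 6 astrocyte and 2 of 6 oligodendrocyte markers passed as lower, beside 26.9% of all probes lower and 13.2% higher, and 1 of the interneuron markers, Gad1, was above background on no dying array. With dying replicate 1 left out, 4 of 8 microglia and macrophage markers were higher in limma (Cd68, Itgam, Tyrobp and C1qb) and 1 of 3 red blood cell markers, with Vwf lost, and lower were 1 of 8 pyramidal neuron markers (Snap25), 1 of 5 interneuron, 2 of 6 astrocyte and 2 of 6 oligodendrocyte markers. Without sham replicate 1 the pyramidal neuron, interneuron, astrocyte, endothelial and red blood cell calls were lost. Of the microglia and macrophage calls those of Cd68 and Tyrobp were left. In the other direction, Slc17a7, Camk2a, Grik4 and Nefl were called lower as well as Snap25 and Nrgn without dying replicate 2. The dying group was then replicate 1 alone.

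The markers of the labelled cell type were present on every array. Of 9 pyramidal neuron markers 8 had a probe, 8 of which were well above background on 7 arrays and 7 on dying replicate 1, where Grik4 was not. Their sum was 5969 and 5825 in surviving neurons, 3020 and 3222 in dying ones, 10819 and 9387 in the sham pools and 5458 and 8201 in the naïve pools. This sum is in effect the Nrgn probe, with 2932 of the 3020 on dying replicate 1. The median log2 level of the list was 5.15 and 4.81 in surviving neurons, 1.91 and 4.57 in dying ones, 4.85 and 4.93 in the sham pools and 3.93 and 5.07 in the naïve pools, so that dying replicate 2 lay above naïve replicate 1. The 10 members' brightest probes summed to 15603 and 17270 in surviving neurons and 8977 and 9655 in dying ones. In the sham pools they summed to 34575 and 28690, and in the naïve pools to 17504 and 26414. Non-uniform spots are not in these sums, so that 9 and 10 members count on the surviving and 8 and 9 on the dying arrays. Both sums were lowest on the dying arrays. Of 5 interneuron markers 4 were well above background on each sham and each dying array, with sums of 125.6 and 131.8 in surviving neurons, 441.6 and 111.1 in dying ones and 308.9 and 241.2 in the sham pools.

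**Figure D5:**
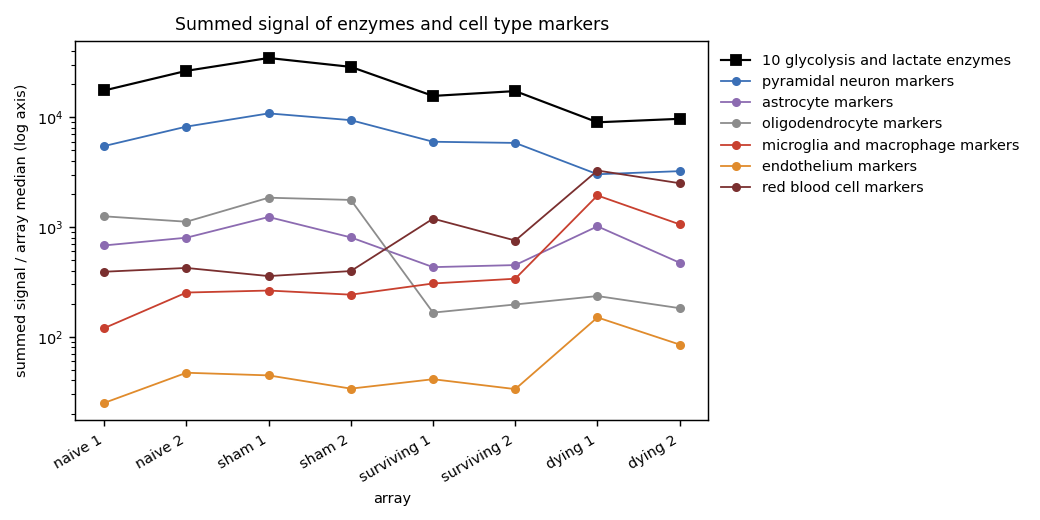
Summed signal over the array median of the 10 members and of marker lists of 6 cell types on each of the 8 arrays, on a log axis. From sham to dying arrays the enzymes go from 34575 and 28690 to 8977 and 9655, while the microglia and macrophage markers go from 263.6 and 241.8 to 1935 and 1057.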

How the data were processed

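The processed intensity of each spot was made by the authors in the image software (Agilent Feature Extraction 9.1.3.1, per the file headers), with background and spatial trend removed and arrays not normalized to each other. The signal in the deposited series table is this intensity over a constant per array, with array medians of 0.131 to 0.282, and served as an alternative. Spots marked non-uniform were dropped, replicate spots of a probe averaged, and each array divided by its median over all probes, with a floor of 0.01 before log2. Limma 3.58.1 in R 4.3.3 was fitted to 4 groups on 8 arrays, and its code was run on simulated data first. Two-sided p-values were Benjamini-Hochberg adjusted within each comparison, over probes that passed the background mark on both arrays of either group, with a threshold of 0.05. Per array, 20198 to 29391 of the 41012 probes passed the background mark. Named genes were drawn from all members, other pathway genes past the threshold or, among those above background on all 4 arrays compared, the 3 furthest from 0 in each direction, and the 5 most alike by Pearson's r. The members and lists were chosen with earlier results of these data known. Scales from the median of probes above background and of RefSeq probes, isozyme ratios with non-uniform spots kept, the other pathway genes' counts under each alternative, and their values with 1 array left out or with signals below background raised to the dimmest one above it, and the markers' counts with 1 array left out, were added after seeing the data.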

Additional observations from a re-analysis of the deposited data

How the results depend on the processing

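Dying minus sham kept its direction for every member probe under every alternative, but the count past the threshold in limma, 9 with the settings of the report, did not hold. It was 4 with 75th percentile scaling, 4 with quantile normalization, 3 with the median of RefSeq probes, 3 with the median of probes above background, 5 with only the 2 groups compared and 0 with normexp background correction, where 0 of all probes passed. With 1 array left out it ran from 0 to 8. The members' median was -1.17 with 75th percentile scaling, -0.83 with quantile normalization, -1.58 with the RefSeq median and -0.88 with the median above background, and 6 probes did not overlap with normexp correction. The cause was not tested.

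Surviving minus dying gave 0 to 4 member probes past the threshold in limma when 1 array was left out, and 0 in the other alternatives. Its members' median was 2.30 with normexp correction, and 6 probes did not overlap with the RefSeq median. The brighter Hk1 probe reversed to -0.13 with quantile normalization and -0.16 with the RefSeq median.

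Surviving minus sham depended on the scale and on the background correction. Past the threshold in limma were 2 of 13 member probes with a floor of 0.1, beside 5455 of all 26910 probes. With only the 2 groups compared, 2 of 13 passed, beside 10462 of all probes. Probes lower without overlap numbered 4 with 75th percentile scaling, 5 with quantile normalization, 3 with the median above background and 1 with normexp correction, and the members' median was -0.15, -0.24, 0.046 and 0.066 in turn, and -1.22 to -0.55 with 1 array left out. In the same order of alternatives the probes that reversed were, as surviving minus sham: Gapdh A_44_P193181, spotted 10 times (0.22, 0.0051, 0.41 and 0.54), the other Gapdh probe (0.40, 0.20, 0.59 and 0.68), Pgk1 (0.48, 0.51, 0.67 and 0.85) and Ldhb (0.35, 0.17, 0.54 and 0.55). The brighter Eno1 probe reached 0.039 with 75th percentile scaling, 0.23 with the median above background and 0.46 with normexp correction, and Ldha 0.14 with quantile normalization, 0.10 with the median above background and 0.16 with normexp correction. Pgk1 ran from -0.65 to 0.056 with 1 array left out. The cause was not tested.

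Sham minus naïve had 0 member probes higher without overlap with normexp correction and 7 to 13 with 1 array left out. Without naïve replicate 1, 2 were lower without overlap. A lone array makes such counts easier to reach. No share over all probes is given for counts without overlap, here or in the comparisons above. The members' median was 0.10 with the median above background, 0.051 with quantile normalization and 1.52 with normexp correction. The Ldha/Ldhb ratio reversed to -0.23 with normexp correction and ran from -0.16 to 0.45 with 1 array left out. Hk2/Hk1 was not read, because Hk2 was above background on 1 of 8 arrays. Its computed values between sham and naïve neurons, where no array measured Hk2, ran from -0.46 to 0.070 with 1 array left out. Between surviving and dying neurons 1 surviving array alone measured Hk2. The values there were -1.65 with normexp correction and -0.80 to 1.84 with 1 array left out. No direction is read from either comparison.

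Other pathway genes past the threshold in limma, 5 in surviving minus sham beside 4171 of all probes, changed in number with the settings. They numbered 2 with 75th percentile scaling, 3 with the RefSeq median and 0 with normexp correction, beside 5205, 3565 and 0 of all probes. They numbered 9 with only the 2 groups compared and 2 with a filter on all 4 arrays, beside 10462 and 1609 of all probes. In dying minus sham, 16 became 0 with normexp correction, 10 with the filter on all 4 arrays and 3 to 19 with 1 array left out, and in surviving minus dying 0 to 8.

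With a replicate block, dying minus sham had 6 of 12 member probes past the threshold in limma, beside 9141 of all 25629 probes. Surviving minus sham had 2 of 34 other pathway genes, beside 2648 of all 26910 probes. The labels do not pair the arrays, and deviations of same-numbered arrays correlated at -0.19 to 0.07 over 15254 probes.

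The 2 arrays per group limit every count. Slide and injury cannot be told apart in comparisons with sham neurons. Signal over background limits Hk2, Hk3, Flt1, Itgam, Gad1, Slc2a3, Dlat and Pdk3, which did not pass the background mark on every array. Without dying replicate 1, Dlat and Pdk3 differed from sham neurons by -1.60 and -1.95 and did not pass in limma, nor did Gpi, Tpi1, Bpgm, Slc16a1, Slc16a3, Bsg and Pdhb. In surviving minus sham Pfkp, Slc16a1, Pdha1 and Hif1a no longer passed whichever array was left out. Their differences stayed negative each time, and calls over all probes became fewer.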
